A study of Arabidopsis thaliana with 6 samples.

Results

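Leaves of Arabidopsis thaliana sprayed with Tween 20 were compared with leaves sprayed with distilled water 2.5 h after spraying, in the experiment that the titles number II. The comparison takes 2 of the 6 arrays of the study, 1 array per spray, and was read as a fold on 14074 of the 22746 probe sets other than controls. A probe set was kept where the brighter of its 2 signals reached the 40th percentile of its array, which lay at 23.8 units on the water array and 23.9 units on the Tween 20 array. The kept probe sets were 61.9% of all, and 7591 of them had 1 gene in the platform annotation.

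All plants were of the wild-type ecotype Col-0, were 28 days old and had grown in sterile jars of 0.5 L, with 33 plants to an experiment, so water and Tween 20 leaves shared genotype, age and growth. Tween 20 was sprayed at 0.2%, which is 1.6 mM. The other 4 arrays came from experiments IA and IB, biological repetitions of the same pair of sprays collected after 1 h, and they are used here beside the 2.5 h values. Arrays were assigned by their titles, because the treatment text of the labels names water for Tween 20 samples too and gives 2.5 h for the samples of IA that the titles place at 1 h. Values called 1 h in IA rest on the titles. Each array carried RNA pooled from 3 extracts, so the spread between extracts cannot be seen, and the 2.5 h pair has no replicate. No difference at 2.5 h therefore carries an error, and "higher" and "lower" describe these 2 arrays.

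Tween 20 is a non-ionic polysorbate detergent, used as a wetting agent because it lowers surface tension and lets an aqueous spray spread over the waxy cuticle. A leaf that meets a chemical or mechanical disturbance changes several groups of transcripts within hours. Surface receptors and ubiquitin ligases set the strength of immune signalling, and WRKY factors act on defence genes downstream of them. UDP-glycosyltransferases, glutathione transferases and cytochrome P450 enzymes handle foreign and self-made small molecules, while xyloglucan endotransglucosylases, expansins and pectin enzymes remodel the wall. The chloroplast keeps a genome of its own, read by a plastid polymerase and a nuclear one.

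The median signal was 40.1 units with water and 40.5 units with Tween 20. Few cell type markers had a probe set named here. RCA, the Rubisco activase of leaf chloroplasts, was at 3844.3 units with water and 3651.7 units with Tween 20. FMA, a guard cell regulator also called FAMA, was at 47.0 and 50.3 units. PYK10, a beta-glucosidase best known from roots, was at 839.1 and 924.9 units, and its part in the results was not tested. In bulk leaf RNA, fewer cells of a type and less RNA per cell cannot be told apart.

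At 2.5 h many more transcripts stood at least 2-fold above water than below it. At least 2-fold higher with Tween 20 were 165 probe sets (1.17% of those kept), and at least 2-fold lower were 37 (0.263%), a ratio of 4.46. The genes above water included a xyloglucan-modifying enzyme, XTH18, and a pair of ubiquitin ligases that restrain immune signalling, PUB22 and PUB23. The lower side held an expansin, EXPB3, and 1 gene of the chloroplast genome, atpI. Among probe sets with 1 gene, 86 were 2-fold higher (1.13%) and 18 were 2-fold lower (0.237%), and 72 of the 86 have only a locus code in the annotation used here.

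Most of the array lay close to equality. The median log2 fold of the kept probe sets was -0.02, and the central 95% of them ran from -0.59 to 0.78. Above 0 were 6685 probe sets (47.5%) and below 0 were 7361 (52.3%), and since all arrays were scaled to the same trimmed mean, this split around 0 cannot show a shift of most transcripts. The SD of the log2 folds was 0.33 at 2.5 h, against 0.53 in IA and 0.39 in IB. None of the 35 Affymetrix control probe sets that passed the same filter was 2-fold apart, and their log2 folds ran from -0.40 to 0.36. Of all kept probe sets 1.17% were 2-fold higher and 0.263% lower, so few or none of 35 would be. The controls do not show the spread between plants.

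**Figure D1:**
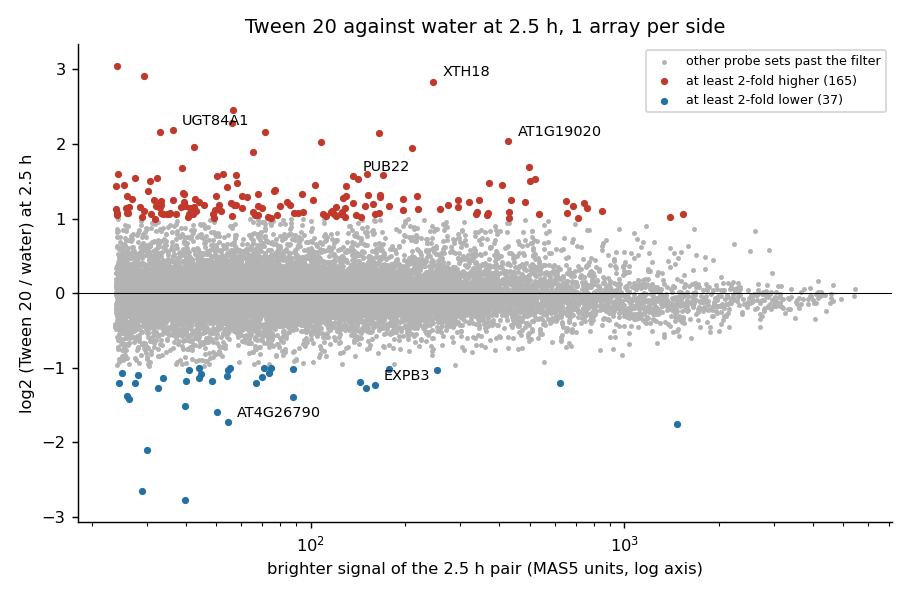
Each point is a probe set kept by the filter, with the brighter signal of the 2.5 h pair in MAS5 units on a log axis (horizontal) and the log2 fold of Tween 20 over water (vertical); red points are the 165 at least 2-fold higher and blue points the 37 at least 2-fold lower. Red points occur along the whole range of signals, and most blue points lie below 200 units.

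The surplus on the higher side was seen at every brightness, as the plot of fold against signal shows. Below 50 units, 60 of 3339 probe sets were 2-fold higher (1.80%) and 18 were 2-fold lower (0.539%). Above 200 units, 34 of 3763 were 2-fold higher (0.904%) and 3 were 2-fold lower (0.0797%). Dim probe sets scattered more, with an SD of 0.39 below 50 units and 0.30 above 200 units. Both signals reached the 40th percentile for 96 of the 165 higher and 17 of the 37 lower probe sets. For the remaining 69 and 20, the dimmer side lay under that percentile and the fold is the least certain. The 2-fold line cut through a continuous range, with AT3G02880 (2.00-fold) just inside and AT4G27652 (1.996-fold) just outside on the higher side, and AT4G24290 (-1.01 on the log2 scale) inside and AT5G62210 (-0.98) outside on the lower side. A difference of at least 4-fold was seen for 11 probe sets on the higher side, 8 of them with 1 gene, and for 3 on the lower side, 0 of them with 1 gene.

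Among named genes with both signals at or above the 40th percentile, the furthest above water was XTH18, a xyloglucan endotransglucosylase/hydrolase that cuts and rejoins the xyloglucan chains of the wall. Its signal was 34.5 units with water and 246.1 units with Tween 20, a 7.13-fold difference. At 1 h the same transcript was at 281.2 units (water) and 706.5 units (Tween 20) in IA, and at 346.5 and 333.7 units in IB. The water array at 2.5 h was thus the low one of the 6, and the Tween 20 signal at 2.5 h lay below both 1 h water signals.

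PUB23 and PUB22 encode U-box E3 ubiquitin ligases that mark proteins for degradation and dampen immune responses to microbial patterns. PUB23 was at 50.1 units with water and 151.1 units with Tween 20 (3.02-fold). PUB22 was at 46.2 and 136.6 units (2.96-fold). Water signals of PUB22 were 42.9 to 65.7 units over the 3 water arrays and Tween 20 signals were 117.1 to 159.2 units over the 3 Tween 20 arrays, so the sprays did not overlap in any experiment. For PUB23 the gap was narrow, since its highest water signal was 50.1 units and its lowest Tween 20 signal was 52.2 units, in IB.

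The other 12 of the 15 named genes furthest above water with both signals bright have only a locus code in the annotation used here, and the families given for locus codes are general background and not part of that annotation. AT1G19020 was at 103.9 units with water and 427.1 units with Tween 20 (4.11-fold), and AT3G50900 at 26.5 and 108.0 units (4.08-fold). AT5G47330, of the alpha/beta hydrolase family, was at 154.7 and 498.1 units (3.22-fold). In AT1G19020, AT3G50900 and AT5G47330 all 3 Tween 20 signals of the study lay above all 3 water signals. Both of the leucine-rich repeat receptor kinase type, AT1G51850 was at 56.8 and 169.8 units (2.99-fold) and AT5G25930 at 68.2 and 165.9 units (2.43-fold). AT1G61360, a lectin-type receptor kinase of the S-locus family, was at 61.4 and 152.2 units (2.48-fold), and the NDR1/HIN1-like gene AT1G65690, from a family linked to defence, at 37.5 and 94.0 units (2.51-fold).

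AT2G43620, of the chitinase family, whose members act on fungal walls, was at 148.6 units with water and 407.7 units with Tween 20 (2.74-fold), but its IB water signal was higher still, at 421.9 units. AT5G12420, related to the wax ester synthase WSD1, was at 29.5 and 76.2 units (2.58-fold), and its Tween 20 signals at 1 h were also above water, at 81.9 units against 26.3 in IA and 106.2 against 23.1 in IB. The remaining 3, AT2G41380, AT5G25440 and AT2G38240, stood 2.42-fold to 2.61-fold above water. AT2G38240 went the other way in IB, at 140.1 units with water and 62.4 units with Tween 20. Of these 15 genes, 11 had a Tween 20 signal at 2.5 h above the 1 h water signals too, as a description only, since the genes were chosen for a high Tween 20 signal over the 2.5 h water signal. The exceptions were XTH18, AT2G43620, AT5G25440 and AT2G38240.

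**Figure D2:**
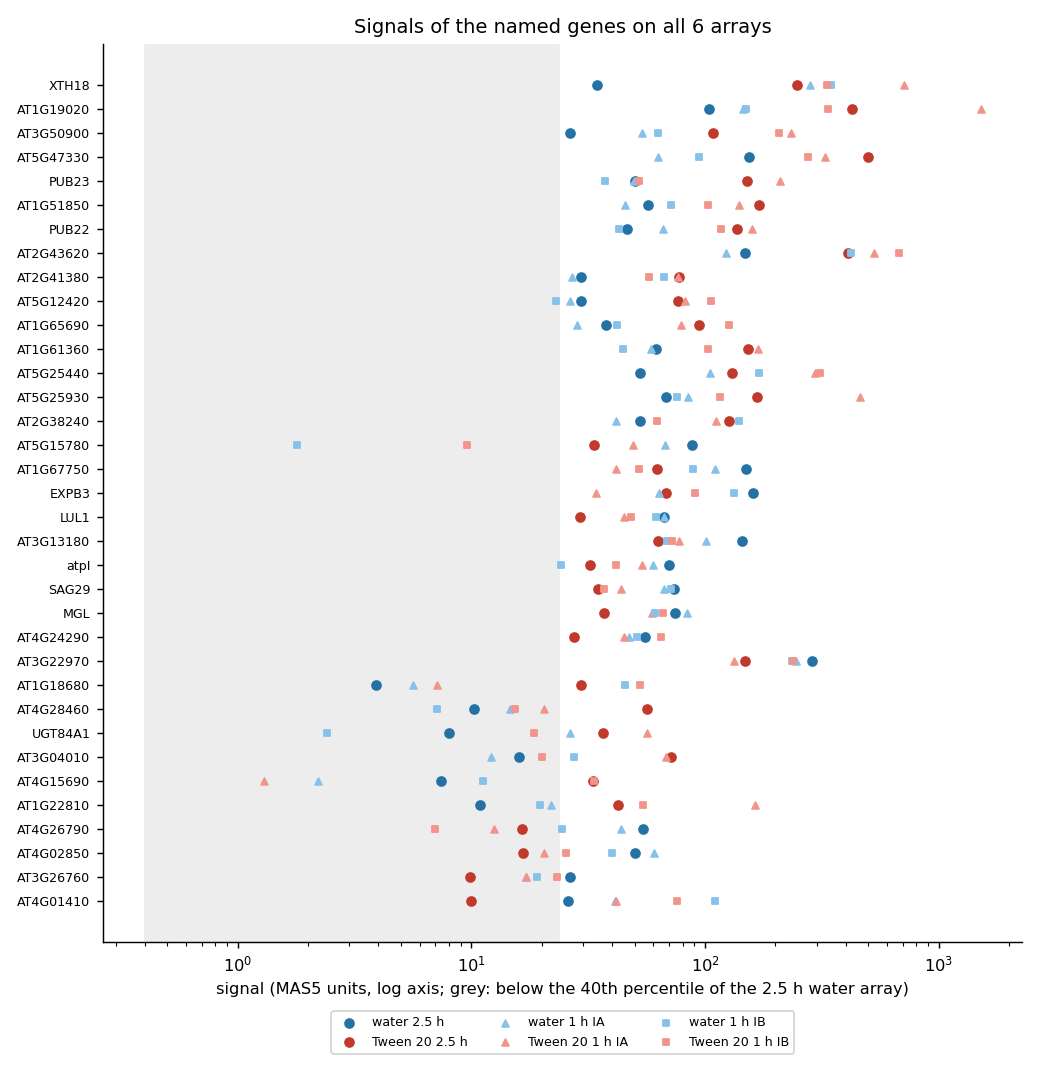
Signals in MAS5 units (horizontal, log axis) of each named gene on the 6 arrays, with blue for water and red for Tween 20, large circles for 2.5 h and pale triangles and squares for IA and IB at 1 h; the grey band lies under the 40th percentile of the 2.5 h water array. XTH18 has its lowest signal of all on the 2.5 h water array, while PUB22 has 3 water signals together on the left and 3 Tween 20 signals together on the right.

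A further 6 named genes stood furthest above water with only the Tween 20 signal at or above the 40th percentile. Their folds are given against the 40th percentile of the water array, since the water signal itself was under it. AT3G04010, of the family of plant beta-1,3-glucanases, was at 15.9 units with water and 71.3 units with Tween 20, 2.996-fold above that percentile. AT4G28460 was at 10.3 and 56.4 units (2.37-fold), and its Tween 20 signal at 2.5 h was the one bright value among its 6 signals. AT1G22810, an ERF-type transcription factor, was at 10.9 and 42.4 units (1.78-fold). It was below the percentile on the 1 h water arrays as well and reached 163.0 units with Tween 20 in IA and 54.4 units in IB. UGT84A1, which joins glucose to hydroxycinnamic acids, was at 8.0 and 36.4 units (1.53-fold).

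AT4G15690, of a glutaredoxin group that interacts with TGA transcription factors, was at 7.4 units with water and 33.1 units with Tween 20 (1.39-fold), and at 1.3 units with Tween 20 in IA. AT1G18680 was at 3.9 and 29.3 units (1.23-fold). A water signal that dim gives no interpretable ratio, and the IB water signal of 45.5 units was above its Tween 20 signal at 2.5 h. The other 5 of these 6 had a Tween 20 signal at 2.5 h above the 1 h water signals as well.

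On the lower side, the named gene furthest below water with both signals bright was AT5G15780, at 87.9 units with water and 33.5 units with Tween 20 (log2 -1.39). It was nearly dark in IB, at 1.8 and 9.6 units. AT1G67750, of the pectate lyase family that cleaves pectin, was at 150.0 and 62.3 units (log2 -1.27), and its Tween 20 signals were below water in IA and IB too, by log2 -1.40 and -0.77. EXPB3, a beta-expansin of the kind that loosens cell walls, was at 159.7 and 67.8 units (log2 -1.24), with log2 folds of -0.90 and -0.56 at 1 h.

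LUL1, a ubiquitin ligase, was at 66.7 units with water and 29.0 units with Tween 20 (log2 -1.20). SAG29, a senescence-associated sugar exporter also known as SWEET15, was at 73.5 and 34.9 units (log2 -1.07). MGL, the methionine gamma-lyase that breaks methionine down, was at 74.5 and 37.0 units (log2 -1.01). SAG29 was below water at 1 h by log2 -0.61 in IA and -0.95 in IB, whereas MGL was at -0.50 and 0.11. AT3G13180, AT4G24290 and AT3G22970 stood at log2 -1.20, -1.01 and -0.96, and atpI is given with the plastid transcripts. Of these 10 genes, chosen for a low Tween 20 signal against the 2.5 h water signal, 7 also lay below both 1 h water signals, and AT5G15780, EXPB3 and atpI did not. None of the 10 was 2-fold lower in IB, and 6 of them were above water there.

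A set of 4 named genes stood lowest with only the water signal bright. AT4G26790, of the GDSL lipase family, was at 54.4 units with water and 16.4 units with Tween 20, and the water signal was 2.28-fold above the 40th percentile of the Tween 20 array. Its Tween 20 signals at 1 h were also under the 40th percentile, at 12.5 units against 43.7 with water in IA and 7.0 against 24.5 in IB. AT4G02850 was at 50.3 and 16.6 units (2.105-fold), with log2 folds of -1.57 and -0.66 at 1 h. AT3G26760 and AT4G01410 were at 26.4 and 25.9 units with water, only 1.10-fold and 1.08-fold above that percentile.

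The genes of an immune signalling list that had a probe set here lay above water. Of 38 genes listed for salicylate and immune signalling, 8 had a probe set named here. All 8 were kept and all 8 lay above 0 (47.5% of all kept probe sets did), with 3 at least 2-fold higher and a median log2 fold of 0.92 against -0.02 over all. The leading members were PUB23, PUB22 and WRKY53, a transcription factor of defence and leaf senescence, at 63.0 units with water and 128.2 units with Tween 20 (2.03-fold). The median of the same 8 was 1.31 in IA and 0.60 in IB. Named after their values were seen, BIK1, a kinase that passes signals on from immune receptors, was at 107.4 and 190.6 units (log2 0.83), and SAG101, a partner of EDS1 in immunity, was at 20.6 and 34.0 units, dim with water. No p-value was computed for this or any other list, since the members were chosen with earlier results of these data known. For the same reason nothing is read from these counts about immune signalling in general.

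WRKY and U-box genes differed within their families. Of 6 WRKY genes with a probe set named here, 5 were kept, 4 lay above 0, and the median was 0.91. WRKY6 was at 45.3 units with water and 86.7 units with Tween 20 (log2 0.94), and WRKY22, which acts downstream of pattern receptors, was at 50.1 and 94.1 units (log2 0.91). WRKY20 was at -0.09. Of 9 U-box genes 8 were kept, with a median of 0.16, so PUB22 and PUB23 stood apart from most of the family. PUB24, the closest relative that acts together with PUB22 and PUB23, was at 43.9 and 50.2 units (log2 0.19) at 2.5 h. Its log2 fold was 1.34 in IA, but its effect at 2.5 h was only 0.60 lower than the mean of IA and IB. Its fold in IB was thus below that in IA. PUB19 was lower with Tween 20, at 88.2 and 47.1 units (log2 -0.91).

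Calcium sensors and genes of abscisate, drought and cold were mixed at 2.5 h. Of 7 calmodulin-like genes, sensors of cytosolic calcium, 5 were kept and 4 lay above 0, with a median log2 fold of 0.30 against 1.16 in IA and -0.12 in IB. CML42 was at 59.9 units with water and 92.4 units with Tween 20 (log2 0.63), and CML38 at 27.4 and 36.7 units (log2 0.42). At 1 h CML38 was at 13.5 units with water, under the 40th percentile, and 85.8 units with Tween 20 in IA, and at log2 -0.26 in IB, while CML42 was at log2 1.83 in IA and 1.48 in IB. Of 20 genes listed for abscisate, drought and cold, 5 were kept, 3 of them above 0 and 2 below (median 0.37). STZ, a zinc finger repressor of stress responses, was at 134.0 and 239.8 units (log2 0.84), LTI30, a dehydrin, at 0.46 and COR15B, a chloroplast cold protein, at 0.37. The members below 0 were COR15A at -0.19 and COR47 at -0.10, named after their values were seen.

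Genes of protein folding and of the unfolded protein response in the endoplasmic reticulum lay above 0 at 2.5 h, with small differences. Of 8 such genes 8 were kept and all 8 lay above 0, as did 47.5% of all kept probe sets. The median log2 fold was 0.28, and 0 were 2-fold apart. At 1 h, 5 of the 8 lay above 0 in IA (median 0.38) and 4 in IB (median 0.05). BZIP60, the transcription factor whose messenger is spliced when unfolded protein builds up, was at 189.3 units with water and 334.3 units with Tween 20 (log2 0.82). ATERDJ3B, a co-chaperone, was at 775.7 and 1241.9 units (log2 0.68), and CRT1b, a calreticulin, at 735.6 and 1131.6 units (log2 0.62). In IA their log2 folds were 1.53, 0.86 and 0.68, and in IB 0.26, -0.23 and -0.47. BZIP60 is the one of these 3 that stood above water in all pairs.

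Enzymes that handle foreign compounds did not share a direction. Of 48 UDP-glycosyltransferases with a probe set named here, 27 were kept, 15 of them above 0 and 12 below, with 3 at least 2-fold higher and 0 lower. The family median was 0.02, and -0.01 over the 22 members with both signals bright. Each of the 3 higher members had a water signal under the 40th percentile. Besides UGT84A1 they were UGT73B4, a stress-type enzyme that accepts foreign phenols and flavonoids, at 17.8 units with water and 42.8 units with Tween 20, and UGT85A7 at 10.5 and 25.9 units. The Tween 20 signal of UGT73B4 was 1.80-fold above the 40th percentile of the water array at 2.5 h. At 1 h it was at 12.2 and 83.2 units in IA and at 19.1 and 23.1 units in IB, dim with water both times.

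Of 13 glutathione transferases 6 were kept, 0 of them 2-fold apart, with a median of -0.12 and GSTU18 furthest from 0, at 154.8 and 125.8 units (log2 -0.30). Of 23 cytochrome P450 genes 12 were kept and 0 were 2-fold apart, with 9 below 0 and a median of -0.17. CYP71B23 was the P450 gene furthest from 0, at 106.3 units with water and 197.5 units with Tween 20 (log2 0.89), and CYP71B5 was at 69.5 and 45.3 units (log2 -0.62). Of 3 kept glutaredoxins with a symbol, GRX480, a redox partner of TGA factors in the salicylate response, was at 39.8 and 74.7 units (log2 0.91). AT4G15690, given above with the genes dim with water, has only a locus code and is not counted among the 3. Of 3 oxidative stress markers, NDB2, an alternative mitochondrial NADH dehydrogenase, stood furthest from 0, at 121.5 and 166.4 units (log2 0.45).

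Wall-modifying families split between higher and lower. Of 10 xyloglucan endotransglucosylases 6 were kept, 5 of them above 0, with 2 at least 2-fold higher and a median of 0.48, which was 0.23 with the filter at the 60th percentile. Next to XTH18 stood XTH33, at 30.9 units with water and 65.5 units with Tween 20 (2.12-fold), and XTH19, at 27.3 and 45.4 units (log2 0.73). All 3 had their lowest water signal at 2.5 h, with XTH33 at 110.6 and 97.9 units on the 1 h water arrays and XTH19 at 81.1 and 195.7 units. In IB 0 of the 6 lay above 0.

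Of 18 expansins 7 were kept, 5 of them below 0, with a median of -0.67. EXPA8 was at 67.8 units with water and 35.6 units with Tween 20 (log2 -0.93), and EXPB2 at 25.8 and 15.2 units (log2 -0.76, dim with Tween 20). EXLA1, an expansin-like protein named after its values were seen, went the other way, at 173.8 and 285.4 units (log2 0.72). The medians of the 7 at 1 h were -0.15 in IA and -0.35 in IB. Here too the 2.5 h water array stood apart for some members, since EXPA8 was at 20.6 and 48.3 units on the 1 h water arrays.

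Other wall families, counted by symbol, had medians nearer to 0. Of 15 GH9 endoglucanases, which cut cellulose-type glucans, 6 were kept and 5 were below 0 (median -0.36), with GH9B13 at 149.8 units with water and 110.2 units with Tween 20. Among 4 kept pectin methylesterases with a symbol, which strip methyl groups from pectin, ATPMEPCRB was at 183.3 and 434.6 units (2.37-fold). The other 3 lay between log2 -0.24 and 0.09, and members with only a locus code were not looked at. ATPMEPCRB was above water at 1 h as well, by log2 1.76 in IA and 0.63 in IB. Of 14 trichome birefringence-like genes, which add acetyl groups to wall sugars, 7 lay above 0 and 7 below, with TBL36 lowest at log2 -0.95. Among 4 subtilases, proteases of the wall space, SBT3.3, a protease of immune priming, was at 16.9 and 35.5 units, dim with water, and the family median turned from 0.25 to -0.24 over the 3 members with both signals bright.

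**Figure D3:**
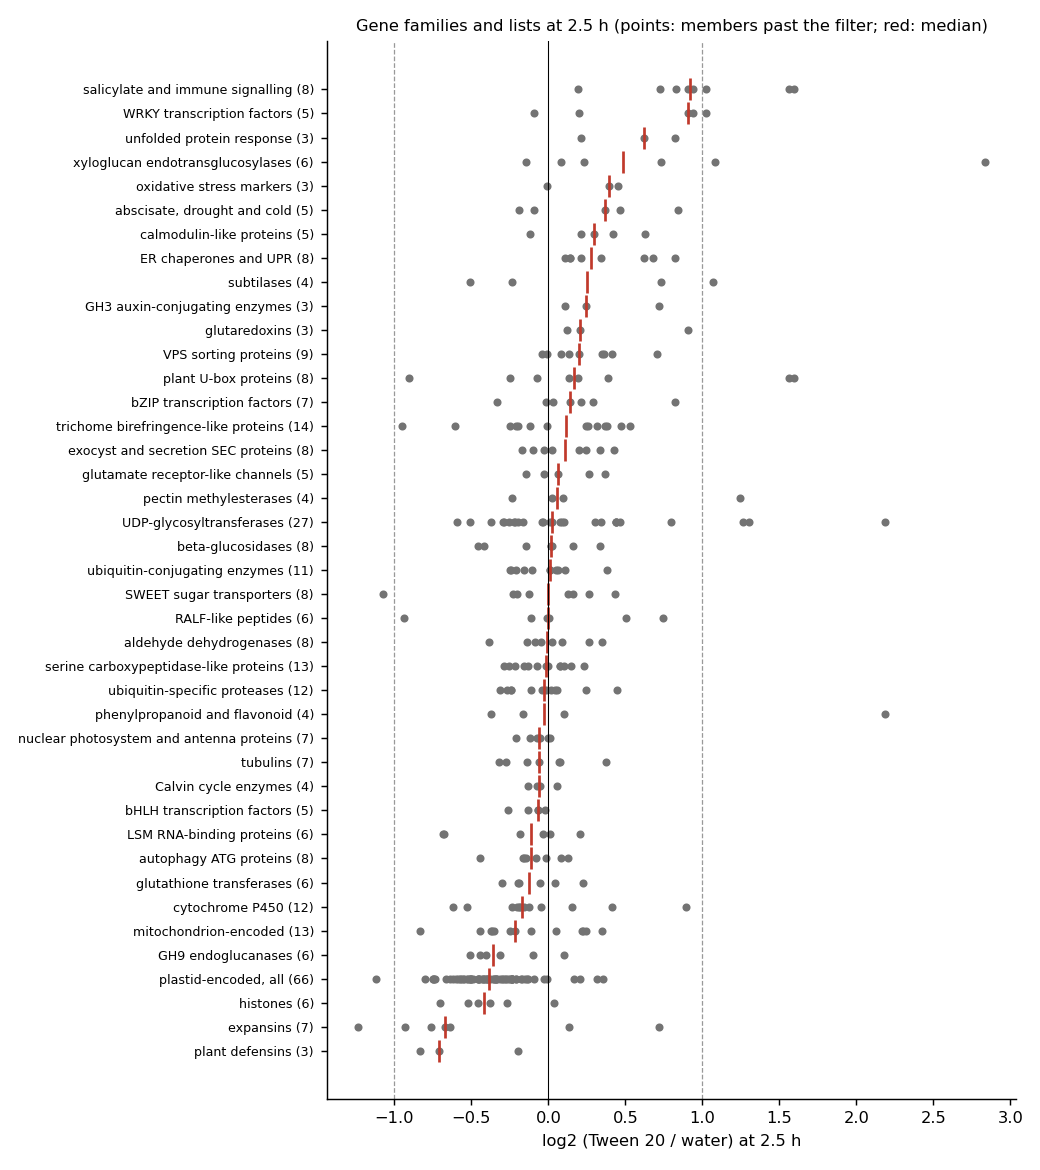
Log2 fold of Tween 20 over water at 2.5 h (horizontal) for each member kept by the filter (grey points), by family or list with at least 3 such members (number in brackets), sorted by the median (red bar); dashed lines mark 2-fold. Salicylate and immune signalling has the highest median, 0.92, and plant defensins have the lowest, -0.71, while most medians lie near 0.

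Several smaller families stood below water. All 3 kept plant defensins, small antimicrobial peptides, lay below 0 (52.3% of all kept probe sets did). PDF1.2, a marker of jasmonate and ethylene defence, was at 243.7 units with water and 136.9 units with Tween 20 (log2 -0.83), and PDF1.2b at 675.4 and 413.4 units (log2 -0.71). The PDF1.2b probe set carries the suffix _x_at, so its probes can take up RNA of other genes. Whether these folds share signal was not tested. PDF1.2 was at log2 -0.96 in IA and -0.24 in IB. OPCL1, which activates precursors of jasmonate, was above water, at 147.5 and 220.3 units (log2 0.58). Of 6 kept histone genes 5 were below 0 (median -0.42), with HTB2, a histone H2B, furthest at 155.0 and 95.4 units (log2 -0.70).

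Signalling peptides and transporters had no common direction. RALFL31 and RALFL22, peptides of the RALF type that act on the wall and on growth, stood at log2 -0.94 (dim with Tween 20) and 0.75. RALFL22 was at 125.1 units with water and 210.0 units with Tween 20. Of 8 kept SWEET sugar transporters 4 lay above 0 and 4 below, with a median of 0.0009, and after SAG29 the furthest was SWEET11, which exports sucrose in the phloem, at 688.8 and 930.5 units (log2 0.43). All 3 kept GH3 genes, which join auxin and other hormones to amino acids, lay above 0, led by GH3.3 at 36.9 and 60.8 units (log2 0.72). GH3.3 was at log2 1.95 in IA and 1.04 in IB. Of 9 kept VPS genes, which sort membrane cargo, 7 lay above 0 (median 0.20), led by VPS20.1 at 54.4 and 88.9 units (log2 0.71).

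Transcripts of the chloroplast genome lay below water almost as 1 body. Of 69 plastid-encoded probe sets 66 were kept, and 62 of them lay below 0, which is 93.9% against 52.3% of all kept probe sets. Their median log2 fold was -0.38, the middle 50% ran from -0.52 to -0.24, and 69.7% lay below -0.25 against 17.2% of all. Only atpI, a subunit of the membrane part of the ATP synthase, was 2-fold lower, at 70.1 units with water and 32.3 units with Tween 20 (log2 -1.12). The shift was thus wide and small, and 0 of the 66 were 2-fold higher.

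Among the plastid groups described, the median shift was largest for genes of the plastid's own expression machinery. Some kept plastid probe sets belong to none of these groups, and the part of brightness in this order was not tested. All 14 ribosomal protein genes lay below 0, with a median of -0.54. Among them rps15 was at 123.6 units with water and 70.9 units with Tween 20 (log2 -0.80), rpl20 at 245.7 and 146.1 units (log2 -0.75), and rpl33 at 1268.3 and 800.4 units (log2 -0.66). All 4 genes of the plastid RNA polymerase lay below 0 too (median -0.58). Of these rpoC2 was at 204.1 and 132.8 units (log2 -0.62) and rpoC1 at 546.4 and 374.3 units (log2 -0.55), while rpoB was dim with Tween 20.

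Genes of the photosynthetic complexes were closer to water. Of 20 photosystem genes 17 lay below 0, with a median of -0.21 that was -0.12 after quantile normalization, and psaI, a small subunit of photosystem I, was furthest, at 1032.7 and 715.6 units (log2 -0.53). The cytochrome b6f genes had a median of -0.33, the ATP synthase genes -0.32, and the 9 kept genes of the NDH complex, which carries electrons around photosystem I, -0.35. Within the NDH complex ndhJ was furthest, at 494.9 and 330.1 units (log2 -0.58). The 4 plastid transcripts above 0, named after their values were seen, were psbA at 0.36, petN at 0.32, psbB at 0.21 and psbM at 0.17 on the log2 scale.

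The plastid shift was present at each brightness. It was -0.50 for the 12 probe sets up to 200 units, -0.43 for the 19 from 200 to 1000 units and -0.33 for the 35 above 1000 units. All kept probe sets in the same classes had medians of -0.01, -0.02 and -0.10. Nuclear genes for the same organelle did not shift as far. The 7 kept nuclear photosystem and antenna genes had a median of -0.06, and the 4 Calvin cycle genes, RCA among them, also had a median of -0.06. The 13 kept mitochondrion-encoded probe sets had a median of -0.22, which was -0.03 over the 10 with both signals bright.

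At 1 h the plastid transcripts had other medians, -0.01 in IA and 0.32 in IB. Their summed signal over 69 probe sets was 80468 units with water and 66385 units with Tween 20 at 2.5 h, a ratio of 0.825. The ratio was 1.02 in IA and 1.14 in IB. The 1 h water arrays held 89237 units (IA) and 55902 units (IB), so water arrays differed among themselves by more than the 2 arrays at 2.5 h did. As a share of all signal, plastid probe sets took 2.62% with water and 2.2% with Tween 20 at 2.5 h.

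**Figure D4:**
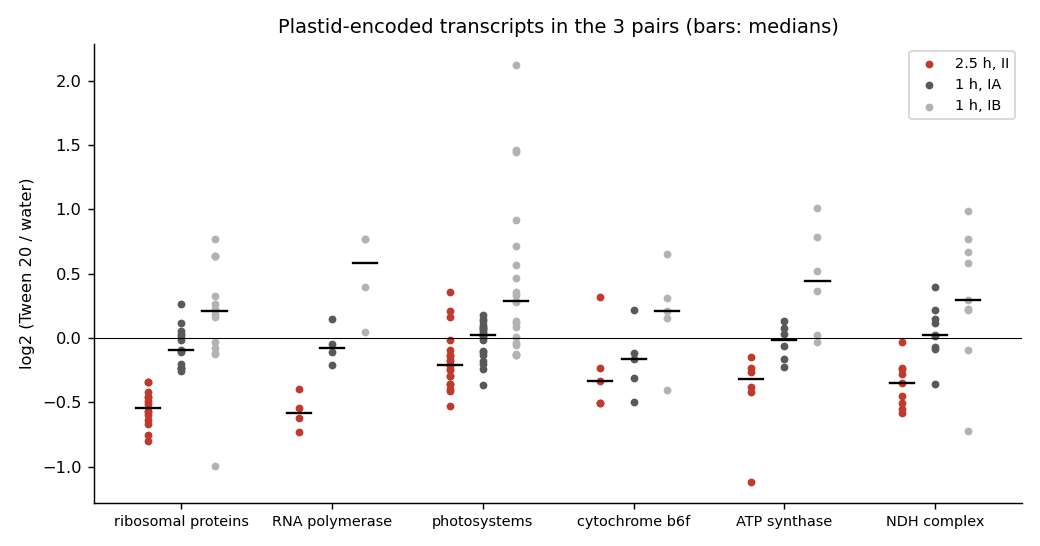
Log2 fold of Tween 20 over water (vertical) for plastid-encoded probe sets kept at 2.5 h, by complex, with red for 2.5 h, dark grey for IA and pale grey for IB at 1 h; black bars are medians. All ribosomal protein and RNA polymerase points at 2.5 h lie below 0, while the IB medians lie above 0 in every complex.

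The 1 h pairs show how far the 2.5 h folds recur in the other experiments. A 1 h fold was counted only where the probe set passed the same brightness filter in that pair. Probe sets dim there count as not 2-fold, such as UGT84A1 in IB, at log2 2.95. Of the 165 probe sets 2-fold higher at 2.5 h, 29 were 2-fold higher in both IA and IB (0.696% of all kept probe sets were), 85 in IA alone, 4 in IB alone and 47 in neither. A 2-fold difference upward was more frequent in IA, at 3.51% of the probe sets kept at 2.5 h, than in IB, at 1.58%. Of the 37 lower probe sets, 2 were 2-fold lower in both 1 h pairs (0.121% of all), 5 in IA alone, 2 in IB alone and 28 in neither. A 2-fold difference downward was seen for 1.03% of the kept probe sets in IA and 0.59% in IB. All 15 of the named genes furthest above water with both signals bright were 2-fold higher in IA, and 7 of the 15 in IB. In IB XTH18, AT2G41380 and AT2G38240 were below water.

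**Figure D5:**
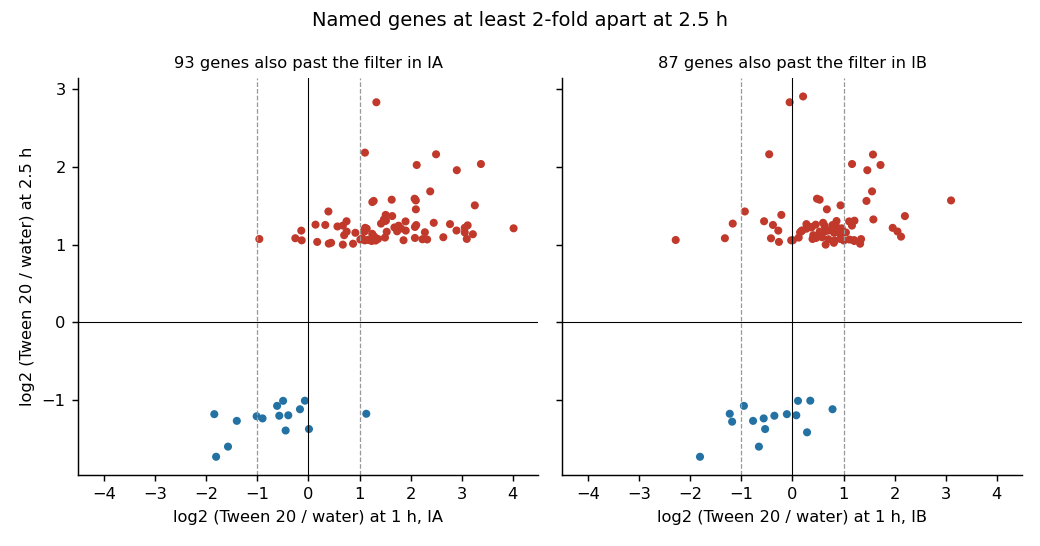
Log2 fold at 2.5 h (vertical) against log2 fold at 1 h in IA (left) and IB (right) for named genes at least 2-fold apart at 2.5 h and also kept in that 1 h pair, 93 genes in IA and 87 in IB; red points are higher and blue points lower at 2.5 h, and dashed lines mark 2-fold at 1 h. Most red points lie to the right of 0 in both panels, further right in IA than in IB.

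The 1 h water signals can be set beside the 2.5 h pair, but the 2-fold choice itself uses the 2.5 h water and Tween 20 signals, so shares away from the background are built in and nothing is read from them. Of the 165 higher probe sets, 122 had a Tween 20 signal at 2.5 h above all 3 water signals (23.3% of all kept probe sets did) and 43 did not. In 80 of the 165 the 2.5 h water signal was below both 1 h water signals (24.9% of all). Of the 37 lower probe sets, 26 had a Tween 20 signal at 2.5 h below all 3 water signals (18.1% of all), and in 28 the 2.5 h water signal was above both 1 h water signals (36.9% of all). Time after spraying and experiment cannot be told apart for the water arrays.

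The Tween 20 effect in experiment II was set against that in IA and IB with limma over all 6 arrays, with the experiment as a block, so that the error comes from the 2 pairs at 1 h. Time after spraying and experiment cannot be told apart in this fit, and the 2.5 h side is a single pair. With Benjamini-Hochberg adjustment 0 of 14345 probe sets passed (0.0%), with adjusted p-values of 0.998 or more, and 356 had an unadjusted p under 0.05 (2.48%). The fit had 1 residual degree of freedom, so the absence of calls does not show that the effects were alike. Among the named genes, XTH18 had an effect 2.197 higher on the log2 scale at 2.5 h than at 1 h (SE 0.56, adjusted p = 0.998 in limma), and XTH33 one 1.87 higher (SE 0.47, adjusted p = 0.998). Of the 66 plastid probe sets, 64 had a lower effect at 2.5 h than at 1 h, with a median difference of -0.52 on the log2 scale, given as a description. The share of all fitted probe sets with a lower effect is not given here, so nothing is read from this count. The 1 h side of the difference holds unlike pairs, with plastid medians of -0.01 in IA and 0.32 in IB.

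Some of the higher genes lie near each other on a chromosome. Among the 84 named loci 2-fold higher that could be placed in order, 6 pairs lay within 10 genes of each other, and their members are named here after their values were seen. AT1G19370 and AT1G19380 are adjacent, at log2 1.44 and 1.17, with AT1G19370 dim with water. AT1G61360 and SD1-29, both S-locus type receptor kinases, have 1 gene between them and stood at 1.31 and 1.05. AT1G51820 and AT1G51850, receptor kinases with leucine-rich repeats, have 3 between them and stood at 1.17 and 1.58. AT4G20830 and AT4G20860, oxidases of the berberine bridge enzyme-like family, have 3 between them and stood at 1.06 and 1.23. AT5G44820 and AT5G44910, with 6 between them, stood at 1.15 and 1.17, and AT5G62280 and AT5G62360, with 7 between them, at 1.10 and 1.06, with AT5G44820 and both of the latter dim with water. How often kept loci in general lie this close was not counted. Probes of close relatives can take up each other's RNA, and their part in these folds was not tested. Of the 165 higher probe sets, 8 carry the suffix of probes shared between transcripts.

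Some loci had more than 1 probe set, so their folds can be set side by side. For 74 loci with more than 1 probe set kept, the median range of the log2 fold between them was 0.18, and the largest was 0.81. Over all kept probe sets the lower quartile of the log2 fold was -0.18 and the upper quartile was 0.17. The range between probe sets of different loci was not computed, so closeness within a locus is not read from 0.18. AT5G44820, which has a 2-fold higher probe set, had another at log2 0.46 against 1.15. AT1G18390 had a 2-fold higher probe set at log2 1.25 and another at 0.89. In each of these loci the other probe set did not reach 2-fold.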

How the data were processed

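Leaf RNA was measured on 6 Affymetrix whole-genome arrays. The authors deposited linear signal intensities, 1 per probe set and array, computed by MAS5 per the submitters' processing notes, with version and scaling not stated there. Detection calls and a genome were not used here. All arrays had the same trimmed mean, 100.01 units, so a shift of most transcripts one way would not be seen. Controls (64) were left out. Signals of 0 were raised to 0.1 before log2. Names came from the platform annotation (13513 probe sets with 1 gene, 503 with several, 8730 with none), updated through NCBI RefSeq TAIR10.1.

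The 2.5 h pair was compared by fold alone. The interaction was fitted in limma 3.58.1 (R 4.3.3) with an intensity trend on probe sets bright on at least 2 arrays, with Benjamini-Hochberg adjustment at 0.05. On simulated data for this comparison with 200 of 14345 probe sets changed by 3 on the log2 scale, it recovered 200 and called 8 others. The 200 were taken from brighter probe sets only. The noise was drawn from a normal distribution, with an SD set by brightness alone. In the arrays the spread also differs among probe sets of like brightness. This recovery therefore does not show that differences of that size would be found in the arrays. Nor does it show that smaller differences, or those of dim probe sets, would be found.

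Named genes (1 gene per probe set) are the 15 furthest above and 10 furthest below water with both signals at or above the 40th percentile, the next 6 and 4 with only the brighter signal there, and the 3 members of each list furthest from 0; others are marked. The members and lists were chosen with earlier results of these data known. The families were defined by gene symbol after the annotation was seen, so relatives with only a locus code are not counted in them. Family counts and medians therefore hold for members with a symbol.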

Additional observations from a re-analysis of the deposited data

Results flagged for a closer look

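Lists with at least 3 kept members whose median at 2.5 h was opposite in sign to both 1 h pairs were picked out; the difference was not tested for any list. The median log2 fold of the xyloglucan endotransglucosylases was 0.48 at 2.5 h, against -0.04 in IA and -0.42 in IB. For the abscisate, drought and cold list it was 0.37, against -0.01 and -0.43. Plastid-encoded photosystem genes were at -0.21, against 0.03 and 0.29, and plastid-encoded NDH genes at -0.35, against 0.03 and 0.29. The SWEET sugar transporters were at 0.0009, against -0.27 and -0.28. That 2.5 h median has no firm sign, since it was -0.01 with median centring and -0.02 with quantile normalization. The IA medians of the first 4 lie close to 0, and the 2.5 h pair has no replicate.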

How the results depend on the processing

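The main counts were 165 higher and 37 lower probe sets. With a pseudocount of 16 they were 65 and 11, with the filter at the 60th percentile 89 and 14, and with both signals at the 40th percentile 96 and 17. Without a filter they were 1275 and 1086, at 1.5-fold 662 and 353, and at 3-fold 19 and 6. Median centring gave 159 and 37, and quantile normalization 174 and 44. The share of calls that were higher was 81.7%, 65.2% at 1.5-fold, 54.0% without a filter, and between 76.0% and 86.4% otherwise. The interaction passed 0 probe sets in each of these limma fits: with the experiment as a block, with no replicate block (34 at an unadjusted p under 0.05, limma), after quantile normalization, with a stricter filter and without the intensity trend. The highest and lowest named genes kept their sign in every alternative run, but this was largely fixed in advance. The stricter filters leave the fold of a gene as it is, and a pseudocount cannot turn its sign. Median centring moves all folds by the same small amount. Of 155 values, 143 moved by less than the SD of their 2 folds at 1 h, with 10 of the other 12 under the pseudocount. The 143 include the values under the stricter filters, which could not move. For the plastid-encoded, expansin, xyloglucan endotransglucosylase, immune and endoplasmic reticulum lists 25 of 25 medians moved by less than the SD of their 2 medians at 1 h, and for the other lists 181 of 210. An SD of 2 values is wide wherever IA and IB differ. These tallies therefore depend on how far IA and IB differ and do not show that a value is stable. The largest shift of a median was 0.485, for the subtilases with both signals bright, which changed its sign. Under the 60th percentile filter the median was 0.23 for xyloglucan endotransglucosylases (0.48 in the main setting), 0.63 for calmodulin-like genes (0.30) and 0.35 for VPS genes (0.20). Without each 1 h array in turn, added after seeing the data and with no replicate block, the interaction also passed 0 probe sets (46 to 96 at an unadjusted p under 0.05, smallest adjusted p 0.479). The 2.5 h pair has no replicate to leave out, and leaving out a whole 1 h pair under the block leaves no residual degrees of freedom. Dim signals limit precision.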
